A study of Homo sapiens with 12 samples.

Results

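Interferon-stimulated genes are the antiviral genes that cells switch on after type I, II or III interferon. They were followed in Daoy cells, an established human medulloblastoma (MB) line. Of 40 genes in the list, 39 had a probe whose RefSeq accession gave the symbol, and the probe with the highest mean signal stood for each gene. No probe was matched by accession for IFI27, so it was not analysed here. All 39 passed the filter on dim probes, beside 25275 genes tested in all.

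The cells were kept either in DMEM or in astrocyte conditioned medium (ACM), the supernatant of cultured hippocampal astrocytes from newborn Sprague Dawley rats. Both media held fetal bovine serum. Cells were measured after 1 passage (P1) or after 3 (P3), with 48 h to each passage, and the labels speak of independent experiments, so that each of the 4 groups (P1 DMEM, P1 ACM, P3 DMEM and P3 ACM) had 3 single-colour Agilent arrays. All 12 arrays are of 1 cell line, and human probes were used although the medium came from rat cells. The log2 level of a gene on an array is its log2 intensity less the 75th percentile of log2 intensity there. Probes differ in brightness, so the levels of different genes are no order of their RNA amounts.

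Features of the arrays bear on every value below. Arrays with the same scan time in the scanner output were taken as 1 slide, which gave 3 slides. The sample labels do not name slides. On slide 1 were the P1 ACM arrays, joined by P3 ACM replicate 1. The other P3 ACM arrays shared slide 2 with replicates 1 and 2 of P1 DMEM. Replicate 3 of P1 DMEM was on slide 3, beside the P3 DMEM arrays. No slide held both media at the same passage. The share of probes well above background was 74.2 to 80.2% on slide 2 and 88.1 to 94.6% on the others. In addition, a deposited table of log2 values carries its own sample labels, and each of its 12 columns ranked as an array with a different label in the scanner output. The 3 columns labelled P3 ACM, for example, ranked as the scanner arrays labelled P3 ACM replicate 2, P3 DMEM replicate 3 and P3 DMEM replicate 2. The groups below are those of the scanner output, and for the list the main results under the labels of the table are given as well. Genes outside the list are given under the scanner labels only.

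Interferons act through cell surface receptors (IFNAR1 and IFNAR2 for type I) and the kinases JAK1 and TYK2. These phosphorylate STAT2, which joins IRF9 in a complex that binds the interferon-stimulated response element in the promoters of its targets. The type II response also uses another element, the gamma-activated site. Many cell lines, tumour lines among them, hold a low tonic level of these genes without added interferon.

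The core of the response element, searched as GAAANNGAAA on both strands, is shown for those genes that passed the thresholds (more than 2-fold and p of 0.05 or less) as lower in ACM at P3 and whose window held it, and for IFI6, which did not follow the other genes. Promoter windows of 250 bases before to 50 bases after a start were taken from RefSeq (GRCh38.p14), where 32 of the 40 genes had an entry. Each is printed 5′ to 3′ on the strand of the gene, with the core, or its reverse complement, in capitals.
IFIT3 (chr10:89327829-89327896, plus strand): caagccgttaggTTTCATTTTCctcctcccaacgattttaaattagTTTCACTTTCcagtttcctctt
BST2 (chr19:17405733-17405772, minus strand): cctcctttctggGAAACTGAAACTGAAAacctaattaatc
ISG15 (chr1:1013372-1013411, plus strand): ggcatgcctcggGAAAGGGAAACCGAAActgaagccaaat
RSAD2 (chr2:6877620-6877653, plus strand): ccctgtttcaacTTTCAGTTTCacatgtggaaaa
PARP9 (chr3:122564320-122564353, minus strand): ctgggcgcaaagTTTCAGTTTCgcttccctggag
IFI6 (chr1:27672264-27672360, minus strand): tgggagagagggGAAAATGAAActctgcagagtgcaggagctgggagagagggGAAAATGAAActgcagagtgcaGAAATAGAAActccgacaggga

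The core was in a window of 23 of the 32 genes, and in a window of 4.38% of all 27305 genes in the RefSeq set, where a gene can have more than 1 window. In BST2 and ISG15 a pair of cores overlapped, so that 1 repeat runs through both. IFI6 held 3 separate copies. The gamma-activated letters TTCNNNGAA, which read the same on both strands, were in a window of 11 of the 32 genes and of 9.38% of all genes. CMPK2, SAMD9L and XAF1 had a window without the GAAANNGAAA letters. The median difference between ACM and DMEM at P3 was -0.77 on the log2 scale for the 22 measured genes with the core and -0.59 for the 9 without, and at P1 -0.53 and -0.60, which is a description of these windows and not of binding.

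The basal level was measurable throughout: each of the 39 probes was well above background on all 12 arrays. In DMEM, without added interferon, ISG15 (a ubiquitin-like protein coupled to other proteins) had a mean log2 level of 3.09 ± 0.60 (SD, n = 6). IFI44 was at 2.61 ± 0.28, IFITM3, which blocks virus entry at the endosome, at 2.51 ± 0.56, and MX1, a GTPase against influenza and other viruses, at 2.40 ± 0.31. IFITM2 was at 2.00 ± 0.45, STAT2 at 1.75 ± 0.31, OASL at 1.53 ± 1.22 and IFIT2 at 1.32 ± 1.37 (SD, n = 6). IFITM2 and IFITM3 are near-identical copies, so their probes may each read both. The SD of OASL and IFIT2 exceeded 1 on the log2 scale within DMEM alone, so their basal level had no narrow value. These basal levels also depend on the scanner labels. Under the labels of the table ISG15 had means of 2.62 in P1 DMEM and 2.25 in P3 DMEM. OASL then had 0.83 and 0.74, and IFIT2 had 0.31 and -0.39.

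The genes moved together from array to array, also within groups. Each gene was set against its own mean over the 12 arrays, and the median of these deviations was taken over the 39 genes. It ran from -0.61 on P3 ACM replicate 1 to 0.76 on P3 DMEM replicate 3. In P1 DMEM it was -0.10, 0.12 and 0.49 for replicates 1, 2 and 3, and in P3 DMEM -0.12, 0.61 and 0.76. In P1 ACM it was -0.56, -0.26 and 0.05, and in P3 ACM -0.61, -0.36 and -0.10. The median deviation of all genes stayed between -0.13 and 0.16. The DMEM and ACM ranges overlapped at P1, and at P3 the lowest DMEM array lay just below the highest ACM array.

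**Figure D1:**
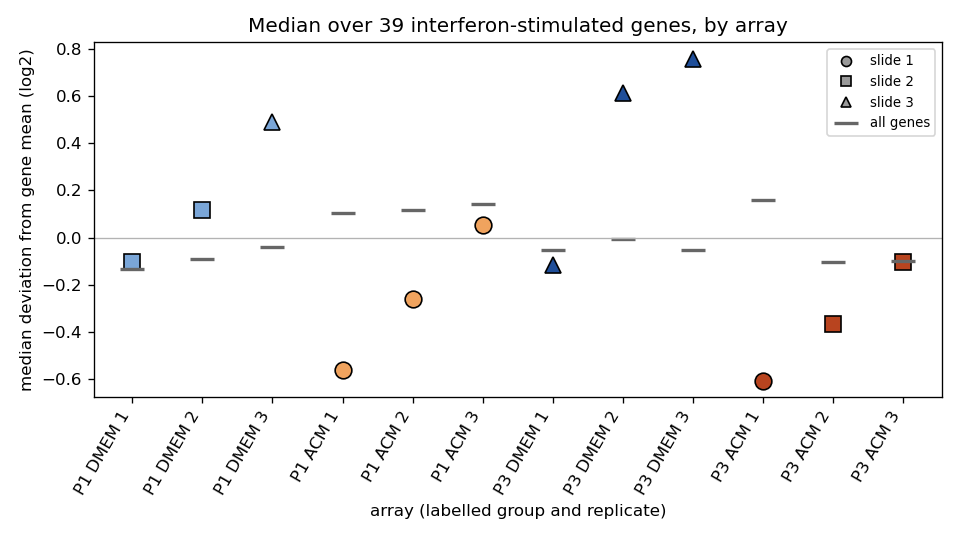
Median deviation of the 39 interferon-stimulated genes from their own means (log2, y axis) on each array (x axis), with the slide as the marker shape, the labelled group as the colour and the median of all genes as a grey dash. The genes run from -0.61 on P3 ACM replicate 1 to 0.76 on P3 DMEM replicate 3, and replicate 1 is the lowest array of each group.

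Replicate 1 was the lowest array of its group in each of the 4 groups. It was lowest for 28 of 39 genes in P1 DMEM, 26 in P1 ACM, 32 in P3 DMEM and 26 in P3 ACM. Over all genes, replicate 1 was lowest for 44.1% in P1 DMEM, 39.5% in P1 ACM, 39.1% in P3 DMEM and 25.9% in P3 ACM. For 16 of the 39 genes it was lowest in all 4 groups, against 4.92% of all genes. At P1 replicate numbers also tracked each other across all kept probes, and the ACM and DMEM arrays of the same number were compared as pairs as well. That pairing was chosen from these same data and is not given by the labels. What replicate 1 shares beyond its number is not given by the labels.

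**Figure D2:**
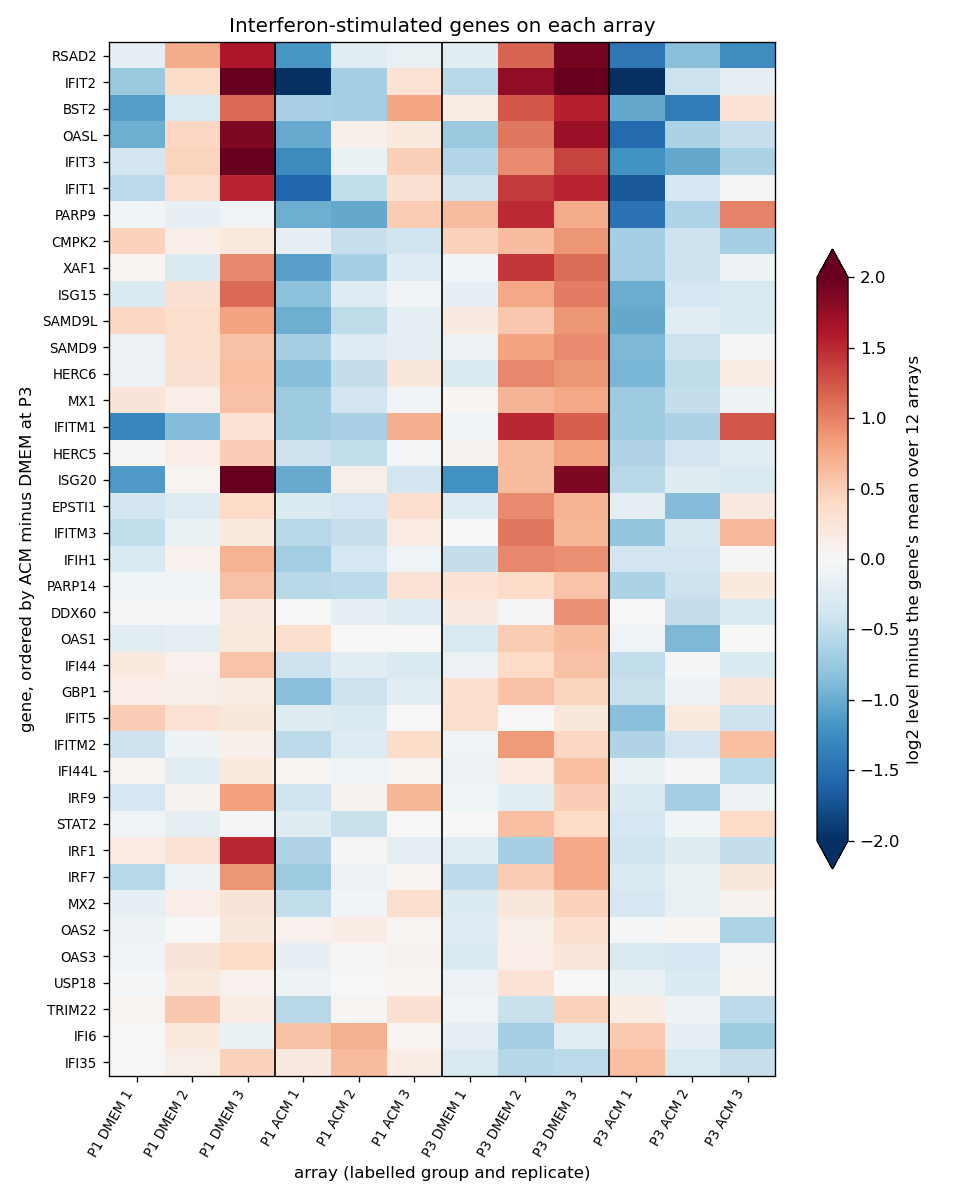
Log2 level of each of the 39 genes (y axis, ordered by the difference between ACM and DMEM at P3) on each array (x axis) minus the mean of the gene over 12 arrays, in colour from -2 (blue) to 2 (red). Most rows share 1 pattern, with P1 DMEM replicate 3 and P3 DMEM replicates 2 and 3 high and P1 ACM replicate 1 and P3 ACM replicate 1 low, while IFI6 and IFI35 run the other way.

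IFIT2, which binds viral RNA and helps to hold back its translation, varied most. Its SD within groups was 1.34, larger than that of 99.8% of the 20096 genes well above background on all arrays. In P1 DMEM its log2 level was -0.30, 0.81 and 2.83 for replicates 1, 2 and 3, and in P1 ACM -1.67, -0.23 and 0.73. In P3 DMEM it was -0.12, 2.21 and 2.48, and in P3 ACM -1.77, -0.00 and 0.27. From the lowest to the highest array this is a 24.2-fold range, and the media overlapped at both passages. The SD within groups was also above that of 97% of those genes for ISG20, OASL, IFIT1, IFIT3, BST2, IFITM1, PARP9 and RSAD2. Over the 39 genes its median was 0.42, against 0.28 in genes well above background on all arrays, and 30 of the 39 lay above that value.

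CMPK2, a mitochondrial nucleotide kinase next to RSAD2 in the genome, and USP18, the protease that removes ISG15, were the least variable. Their SDs within groups were 0.18 and 0.15. Across the 12 arrays 37 of the 39 genes correlated above 0 with the median of the 39. Pearson's r was 0.98 for SAMD9, 0.98 for HERC6 and 0.97 for IFIT1, and below 0 for IFI35 (-0.45) and IFI6 (-0.59). These are descriptions over 12 arrays that share groups and slides. Each gene was itself part of the median it was correlated with, which raises r.

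At P1 the interferon-stimulated genes tended to be lower in ACM than in DMEM. The log2 difference (ACM minus DMEM) was below 0 for 31 of 39 genes, with a median of -0.40, whereas 36.1% of all genes were below 0 and their median was 0.15. Among the 20096 genes well above background on all arrays 43.9% were below 0, with a median of 0.05. Quantile normalization moved the median over all probes at P1 from 0.14 to -0.02, and the interferon-stimulated genes were then lower in 34 of 39. In 1 gene the fall was more than 2-fold at an unadjusted p of 0.05 or less (the thresholds of the study), against 0.0989% of all genes. No gene of the list (0) rose past these thresholds, against 13.5% of all genes and 869 of the 20096 genes well above background on all arrays. The arrays of ACM lay wholly below those of DMEM for 9 of the 39 genes, against 5.36% of all genes, and wholly above for 0, against 30.6%. In the set of 20096 genes, 6.69% lay wholly below and 4379 genes lay wholly above.

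The gene past the thresholds at P1 was SAMD9L, an antiviral and growth-restraining factor related to SAMD9. Its log2 level was 0.62, 0.56 and 1.01 in P1 DMEM and -0.76, -0.30 and 0.03 in P1 ACM. The groups did not overlap, and the fall was 2.11-fold (log2 difference -1.07, SE 0.29, limma adjusted p = 0.103). Without P1 ACM replicate 1 or without P1 DMEM replicate 3 it was less than 2-fold (log2 differences -0.87 and -0.94), and without P1 DMEM replicate 1 the thresholds held 5 genes. SAMD9, its neighbour in the genome, had -0.64, also without overlap.

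The other genes without overlap at P1 were IRF1, IFIT5, MX1, GBP1, HERC5, CMPK2, SAMD9 and IFI44, with differences from -0.52 (IFIT5) to -0.91 (IRF1). IRF1, a transcription factor of both interferon types, was at -1.53, -1.41 and -0.20 in P1 DMEM and -2.31, -1.67 and -1.88 in P1 ACM (adjusted p = 0.207 in limma). P1 DMEM replicate 3 stood well above the other arrays. MX1 was at 2.24, 2.13 and 2.57 in DMEM and 1.27, 1.61 and 1.94 in ACM, a 1.64-fold fall (adjusted p = 0.136 in limma). With 3 arrays against 3, an exact two-sided permutation test could not go below p = 0.1, which is its value for each of the 9 genes.

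The replicate number was also used as a block, in a fit of the P1 and P3 arrays together. Its standard errors and calls thus rest on P3 arrays as well, where same-numbered arrays share only a number. It is therefore not a paired test at P1 alone. The block narrowed the spread for the most variable genes. With it, 5 genes were lower at P1 past the thresholds, against 0.131% of all genes, namely IFIT1, IFIT2, IFIT3, RSAD2 and SAMD9L. For IFIT2 the differences within pairs at P1 were -1.37, -1.04 and -2.10, so that ACM was lower in every pair (with the block, SE 0.32 and adjusted p = 0.125 in limma). For RSAD2, viperin, an enzyme that makes a chain-terminating nucleotide, they were -0.97, -0.94 and -1.77. For IFIT1, which binds RNA that lacks the 2'-O-methyl cap mark, they were -1.06, -0.83 and -1.23. Over the list, 24 of 39 genes were lower in ACM in all 3 pairs, against 14.6% of all genes, and 2, IFITM1 and IFI6, were higher in all pairs, against 42.2% of all genes. No gene of the list had an adjusted p under 0.05 with the block.

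At P3 the log2 difference was below 0 for 37 of 39 genes, with a median of -0.72, while 49.6% of all genes were below 0 and their median was 0.00. In 8 genes the fall passed the thresholds, against 0.819% of all genes, and 0 rose, against 0.91%. These were RSAD2, BST2, IFIT3, PARP9, CMPK2, XAF1, ISG15 and SAMD9L. The ACM arrays lay wholly below the DMEM arrays for 10 of the 39 genes, against 5.02% of all genes, and wholly above for 0, against 4.74%.

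Under the labels of the deposited table the direction at P3 was the opposite, with 3 of 39 genes lower, a median of 0.68 and 3 genes past the thresholds, all higher. At P1 the table had 18 of 39 genes lower and a median of 0.03. With slide as a block, 20 of 39 genes were lower at P3 and 18 at P1, and the medians were -0.01 and 0.02. The direction under the scanner labels therefore holds only for those labels, and medium and slide could be told apart only through arrays of different passages.

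**Figure D3:**
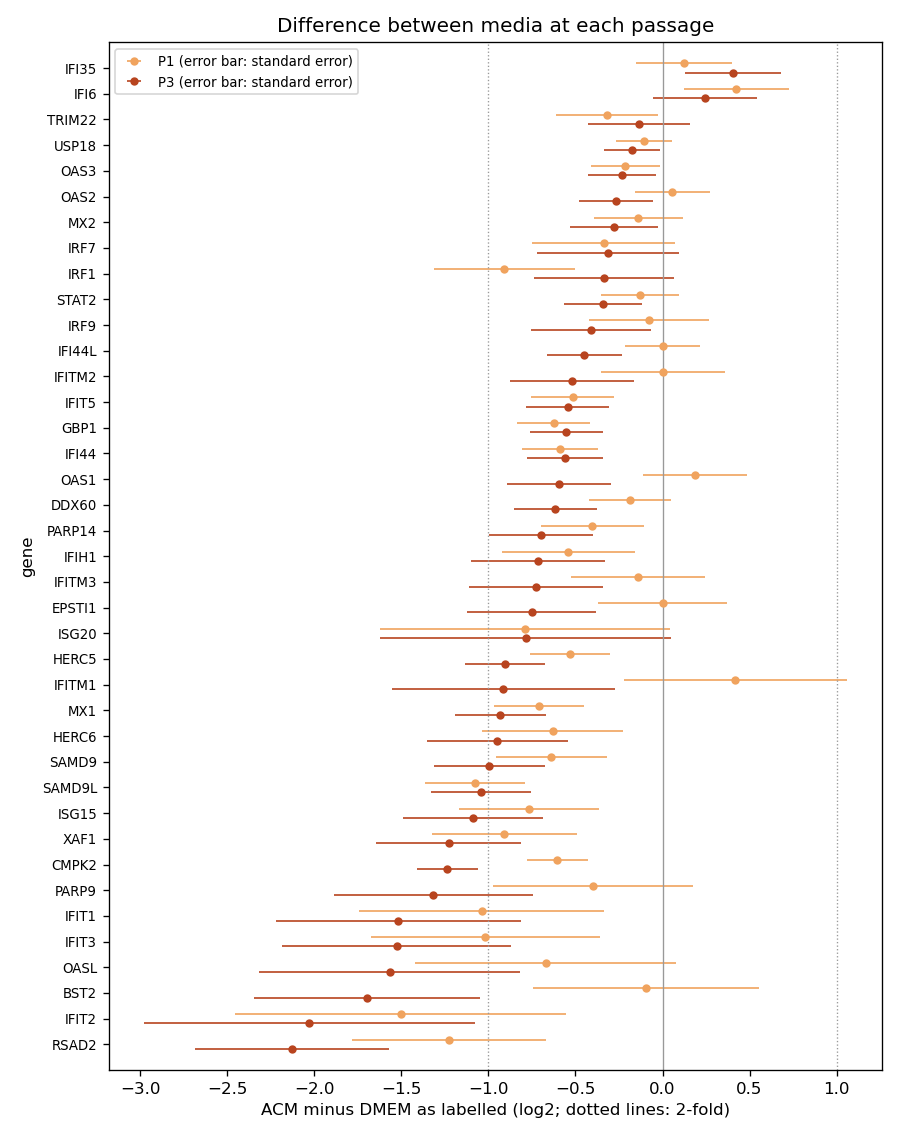
Log2 difference between ACM and DMEM (x axis) for each of the 39 genes (y axis) at P1 (light) and P3 (dark) under the labels of the scanner output, with standard errors from limma over 12 arrays and dotted lines at a 2-fold difference. At P3 the points of 37 genes lie below 0 and those of IFI6 and IFI35 above it.

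Among enzymes of nucleotides, RSAD2 and its neighbour CMPK2 both fell at P3. RSAD2 was at -2.05, -0.67 and 0.07 in P3 DMEM and -3.28, -2.68 and -3.08 in P3 ACM. At P1 RSAD2 was at -2.04, -1.11 and -0.22 in DMEM and -3.01, -2.05 and -1.99 in ACM, which overlapped. At P3 there was no overlap, with a 4.37-fold fall (log2 difference -2.13, SE 0.56, adjusted p = 0.612 in limma). CMPK2 was at -0.66, -0.50 and -0.23 in DMEM and -1.80, -1.53 and -1.78 in ACM. The media were far apart beside a small spread, also at P1 (-0.66, -0.99 and -0.91 in DMEM and -1.28, -1.58 and -1.51 in ACM). At P3 it had a 2.36-fold fall (log2 difference -1.24, SE 0.17, adjusted p = 0.195 in limma). CMPK2 was the gene of the list that stayed past the thresholds with slide as a block. SAMD9L was at 0.39, 0.75 and 1.098 in DMEM and -0.82, 0.01 and -0.07 in ACM, a 2.06-fold fall. ISG20, an exonuclease, had -0.79 at both passages with an SE of 0.83.

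In the ISG15 system, ISG15 itself fell 2.13-fold at P3. Its log2 level was 2.46, 3.40 and 3.65 in P3 DMEM and 1.63, 2.28 and 2.32 in P3 ACM, without overlap (adjusted p = 0.677 in limma). At P1 it was at 2.35, 2.93 and 3.76 in DMEM and 1.81, 2.36 and 2.56 in ACM, which overlapped. HERC5, the ligase that couples ISG15 to proteins, had -0.90 at P3 without overlap and HERC6 had -0.95. USP18 had -0.17, and its spread over all arrays was 1.48-fold.

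**Figure D4:**
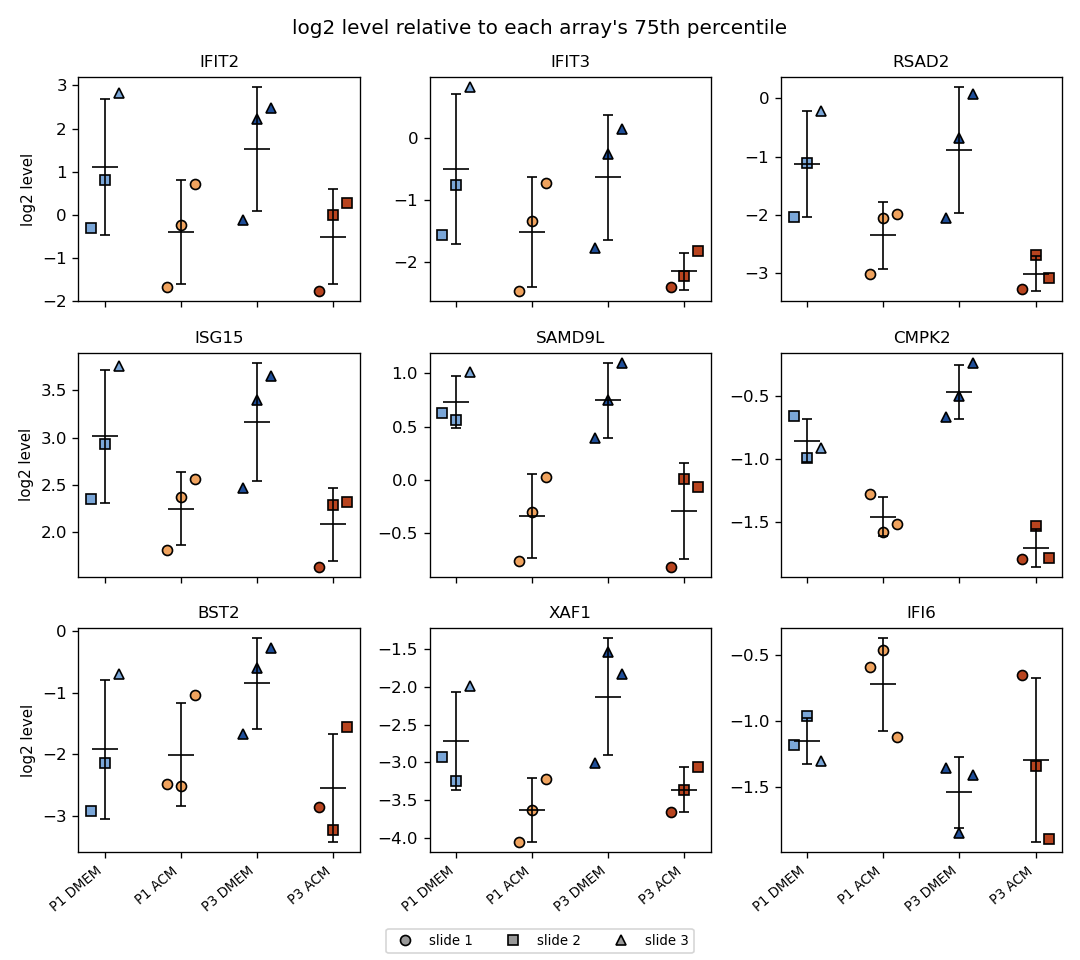
Log2 level, with 0 at the array's 75th percentile (y axis), for 9 genes in the 4 labelled groups (x axis), with 1 point per array, the slide as the marker shape, and the mean with SD (n = 3) in black. CMPK2 and SAMD9L show the media apart at both passages, IFIT2 overlaps at both, and IFI6 is not lower in ACM.

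In the IFIT family all 4 genes were lower in ACM at both passages. IFIT3 was at -1.78, -0.26 and 0.14 in P3 DMEM and -2.41, -2.23 and -1.84 in P3 ACM, a 2.88-fold fall (adjusted p = 0.703 in limma). In P1 DMEM it was at -1.57, -0.76 and 0.82 and in P1 ACM at -2.48, -1.34 and -0.73. Replicate 1 of P3 DMEM was close to the ACM arrays. IFIT1 and IFIT2 had differences of -1.52 and -2.03 at P3, whose unadjusted p did not reach the threshold. IFIT5 had -0.52 at P1 and -0.55 at P3.

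Among membrane proteins, BST2 (tetherin), which holds budding virions at the cell surface, fell 3.25-fold at P3. It was at -1.68, -0.59 and -0.27 in P3 DMEM and -2.85, -3.23 and -1.55 in P3 ACM. The highest ACM array lay above the lowest DMEM array (adjusted p = 0.684 in limma). At P1 it was at -2.92, -2.13 and -0.69 in DMEM and -2.48, -2.51 and -1.04 in ACM, a difference of -0.09 (SE 0.65). IFITM1, IFITM2 and IFITM3 had -0.91, -0.52 and -0.73 at P3 and 0.42, 0.00 and -0.14 at P1, of which none (0) passed the thresholds. IFITM3 was at 1.81, 2.16 and 2.497 in P1 DMEM, 1.74, 1.84 and 2.47 in P1 ACM, 2.31, 3.35 and 2.96 in P3 DMEM, and 1.52, 1.98 and 2.95 in P3 ACM. IFITM2 was at 1.46, 1.76 and 1.97 in P1 DMEM, 1.34, 1.61 and 2.24 in P1 ACM, 1.79, 2.72 and 2.28 in P3 DMEM, and 1.26, 1.502 and 2.47 in P3 ACM. Both overlapped between media at both passages, and replicate 1 was the lowest array of each group.

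PARP9, which binds ADP-ribose and acts with DTX3L, was at 0.49, 1.37 and 0.62 in P3 DMEM and -1.60, -0.74 and 0.88 in P3 ACM. The groups overlapped through P3 ACM replicate 3, and the fall was 2.49-fold (adjusted p = 0.703 in limma). At P1 it was at -0.17, -0.28 and -0.20 in DMEM and -1.09, -1.14 and 0.38 in ACM, again with replicate 3 of ACM the highest. Its relative PARP14 had -0.70 without overlap. XAF1, a proapoptotic partner of XIAP, was at -3.01, -1.55 and -1.84 in P3 DMEM and -3.65, -3.37 and -3.05 in P3 ACM, a 2.34-fold fall (adjusted p = 0.659 in limma). The lowest DMEM array lay only just above the highest ACM array. At P1 XAF1 was at -2.92, -3.25 and -1.99 in DMEM and -4.05, -3.63 and -3.21 in ACM.

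The 8 falls at P3 rested on few arrays. Without P3 DMEM replicate 2 or 3, or without P3 ACM replicate 1, 3 genes passed the thresholds. Without P3 DMEM replicate 1, 18 did, and without P3 ACM replicate 3, 15 did. Between 35 and 38 of the 39 genes were lower whichever array was left out. RSAD2 and CMPK2 passed the thresholds under each of these.

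Of the GTPases, MX1 was at 2.02, 2.67 and 2.77 in P3 DMEM and 1.26, 1.52 and 1.89 in P3 ACM, a 1.91-fold difference without overlap (adjusted p = 0.612 in limma). GBP1 had -0.62 at P1 and -0.55 at P3, both without overlap, and MX2 had -0.14 and -0.28. IFI44 was at 2.51, 2.41 and 2.89 in P1 DMEM and 1.90, 2.11 and 2.03 in P1 ACM. P3 levels were 2.20, 2.72 and 2.91 in DMEM and 1.82, 2.27 and 2.05 in ACM, which overlapped by 1 array of each. Its difference was -0.59 at P1 and -0.56 at P3, and its neighbour IFI44L had 0.00 and -0.45.

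The 4 transcription factors of the list had median differences of -0.23 at P1 and -0.34 at P3. STAT2 was at 1.55, 1.45 and 1.61 in P1 DMEM and 1.39, 1.19 and 1.64 in P1 ACM. P3 levels were 1.64, 2.23 and 2.03 in DMEM and 1.29, 1.57 and 2.01 in ACM. The media overlapped at both passages, with differences of -0.13 and -0.34. IRF9 was at -0.995, -0.60 and 0.15 in P1 DMEM, -1.06, -0.60 and -0.01 in P1 ACM, -0.74, -0.89 and -0.18 in P3 DMEM, and -0.94, -1.33 and -0.77 in P3 ACM. Its differences were -0.08 and -0.41.

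IRF7, which drives interferon genes after induction, was at -1.34, -0.89 and 0.10 in P1 DMEM, -1.51, -0.91 and -0.73 in P1 ACM, -1.30, -0.27 and -0.03 in P3 DMEM, and -1.08, -0.91 and -0.55 in P3 ACM. The ACM arrays lay inside or near the DMEM range, with differences of -0.34 and -0.31. IRF1 at P3 was at -1.91, -2.36 and -0.93 in DMEM and -2.10, -1.94 and -2.18 in ACM, with a difference of -0.34. No transcription factor of the list (0 of 4) passed the thresholds at either passage.

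Among sensors of RNA and their relatives, IFIH1 (MDA5, a sensor of long double-stranded RNA) was at -1.05, -0.67 and -0.05 in P1 DMEM and -1.45, -1.11 and -0.83 in P1 ACM. At P3 it was at -1.22, 0.22 and 0.16 in DMEM and -1.13, -1.13 and -0.73 in ACM. Replicate 1 of P3 DMEM was as low as the ACM arrays, and the differences were -0.54 and -0.72. OASL, a relative of the OAS enzymes without their activity, was at -0.00, 1.39 and 2.85 in P1 DMEM and -0.04, 1.08 and 1.17 in P1 ACM. At P3 it was at 0.23, 2.03 and 2.70 in DMEM and -0.58, 0.33 and 0.51 in ACM (log2 difference -1.57, SE 0.75), with replicate 1 of DMEM inside the ACM range. OAS1, OAS2 and OAS3, which make the 2-5A messenger of RNase L, had -0.59, -0.27 and -0.23 at P3. The other 2 probes of OAS2 had 0.53 and 0.37, so that the direction of OAS2 depends on the probe.

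IFI6 and IFI35 were the genes of the list higher in ACM at P3, by 0.24 (SE 0.30) and 0.41 (SE 0.28). IFI6, a mitochondrial and endoplasmic reticulum protein, was at -1.18, -0.96 and -1.30 in P1 DMEM and -0.59, -0.46 and -1.12 in P1 ACM. At P3 it was at -1.36, -1.85 and -1.41 in DMEM and -0.66, -1.34 and -1.89 in ACM. The media overlapped at both passages. The remaining genes, DDX60, IFI44L, EPSTI1 and TRIM22, had differences from -0.75 (EPSTI1) to -0.13 (TRIM22) at P3.

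Many of the genes lie side by side. Of the 40 genes, 20 had another member as the next protein-coding gene in the RefSeq order, in 11 such pairs. At P3 both members of each of the 11 pairs were lower in ACM. That followed from the list as a whole, since IFI6 and IFI35, the genes higher at P3, were in no pair. For OAS2 it held only for the brightest probe. At P1 both members were lower for IFIT2 with IFIT3, IFIT1 with IFIT5, CMPK2 with RSAD2, MX2 with MX1, HERC6 with HERC5 and SAMD9 with SAMD9L, but not for the IFITM, OAS or IFI44 pairs.

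From P1 to P3 in DMEM the genes tended to be higher, 30 of 39, with a median of 0.25 against 0.08 over all genes. IFITM1 rose past the thresholds, against 1.14% of all genes, and 0 fell, against 0.582%. It was at -0.67, -0.23 and 0.91 in P1 DMEM and 0.58, 2.15 and 1.83 in P3 DMEM. The groups overlapped, the rise was 2.86-fold (adjusted p = 0.571 in limma), and it passed the thresholds no longer without P1 DMEM replicate 1 (log2 difference 1.18) or 2 (1.40), or without P3 DMEM replicate 2 (1.20) or 3 (1.36). Nor did it pass with slide as a block (0.61), with slide as a random block (1.24) or in the methods' t-test, and under the labels of the table it had -0.0237. In ACM, IFITM1 was at -0.09, -0.01 and 1.36 at P1 and -0.07, 0.01 and 1.88 at P3, with replicate 3 far above the others at both.

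From P1 to P3 in ACM 27 of 39 genes were lower, with a median of -0.09 against -0.10 over all genes. None (0) passed the thresholds in either direction, against 0.0356% of all genes higher and 7.48% lower. In the 20096 genes well above background on all arrays, 1.40% were lower past them. Of the 39, 0 had an unadjusted p of 0.05 or less. The test of the difference between passages in the effect of ACM gave 0 genes of the list past the thresholds, against 0.0514% of all genes higher and 6.82% lower. Its median was -0.32 over the list and -0.17 over all genes. Under the labels of the table the median over the list was 0.62, with 36 of 39 genes above 0. Although more genes passed at P3 than at P1, a difference between the passages was thus not shown for a gene of the list at more than 2-fold. Without P3 ACM replicate 3 this count was 3, without P3 DMEM replicate 1 it was 2 and without P1 DMEM replicate 3 it was 1. No gene on the arrays (0 of 25275) reached an adjusted p of 0.05 in limma in any of these 5 comparisons, while 1838 to 6071 genes had an unadjusted p of 0.05 or less.

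Within a slide, medium could not be compared at the same passage. On slide 1, P3 ACM replicate 1 lay below the mean of the 3 P1 ACM arrays in 34 of 39 genes (median -0.29). On slide 2, the mean of the 2 P3 ACM arrays lay below that of the 2 P1 DMEM arrays in 31 genes (median -0.25). On slide 3, the mean of the 3 P3 DMEM arrays lay below P1 DMEM replicate 3 in 27 genes (median -0.16). The rise from P1 to P3 in DMEM across slides thus had the opposite sign within slide 3, where 1 array stands for P1. In these within-slide comparisons all genes had medians from -0.02 to 0.04.

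Genes of the pathway outside the list were read next. Of 9 receptors and kinases, 0 passed the thresholds at either passage. IFNAR1 was at 0.38, 0.38 and 0.42 in P1 DMEM and -0.09, 0.08 and 0.13 in P1 ACM (difference -0.35). At P3 it was at 0.18, 0.14 and 0.25 in DMEM and -0.23, 0.43 and -0.05 in ACM (difference -0.14). The IFNAR1 groups were apart at P1 and overlapped at P3.

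IFNAR2, the other chain of the type I receptor, was at 1.73, 1.60 and 1.06 in P1 DMEM and 1.70, 1.78 and 1.44 in P1 ACM. At P3 it was at 0.80, 1.09 and 1.101 in DMEM and 1.80, 1.56 and 1.66 in ACM. It was thus higher in ACM at P3 without overlap (log2 difference 0.68, SE 0.20, adjusted p = 0.639 in limma), under 2-fold. Of 10 sensors and adaptors, 0 passed the thresholds, with medians of -0.08 and -0.05. TLR3, the endosomal sensor of double-stranded RNA, was lower in ACM by 0.59 at P1 and by 0.70 at P3 on the log2 scale, without overlap at either passage.

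Of 10 interferon genes, 4 passed the filter on dim probes, IFNA2, IFNB1, IFNL1 and IFNL2, with medians of 0.48 at P1 and -0.05 at P3. IFNA2 passed only through P1 ACM, where it was highest, with 1 of 3 arrays well above background in P1 DMEM. Its difference at P1 (0.79) and the median at P1 are therefore no sign of a rise. IFNL1 and IFNL2, well above background on all 12 arrays, had 0.10 and 0.17 at P1. IFNB1, the type I interferon of most non-immune cells, was well above background on 3 of 3 arrays in P1 ACM and in P3 DMEM and on 1 of 3 in each other group, so the size of its differences is uncertain. It was at -6.14, -6.36 and -6.02 in P1 DMEM, -4.79, -4.72 and -5.22 in P1 ACM, -6.40, -5.85 and -5.90 in P3 DMEM, and -4.73, -7.12 and -7.09 in P3 ACM. The 4 highest arrays were the 4 of slide 1. IFNB1 was past the thresholds as higher at P1 (adjusted p = 0.175 in limma), against 13.5% of all genes. In ACM it was past them as lower at P3 than at P1, against 7.48% of all genes. Of 7 negative regulators 1 passed at P1 as higher, PTPN6 (a phosphatase), against 13.5% of all genes, which is near the share in the 7. PTPN6 was well above background on 3 of 3 arrays in P1 ACM and 1 of 3 in P1 DMEM. Its log2 difference of 1.27 was thus taken largely against dim spots. It too was highest on the 4 arrays of slide 1. The median of the 7 was -0.06 at P1 and 0.01 at P3.

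Markers of the cells were also read, and their part in the results above was not tested. In bulk RNA, fewer cells of a type and less RNA per cell cannot be told apart. NES, VIM, CD44 and SOX9, the Daoy markers, were well above background on all arrays and 0 of 4 differed past the thresholds between media. The list of 5 astrocyte markers did not move as 1 group. GFAP did not pass the filter on dim probes. ALDH1L1 and GJB6 were higher in ACM at P1 by 1.65 and 2.70, and AQP4 was lower by 1.37 at P1 and 1.94 at P3 on the log2 scale. SLC1A2, the other kept marker, was higher in ACM at both passages. At P1, 2 of the 4 passed the thresholds as higher, against 13.5% of all genes, and 1 as lower, against 0.0989%. At P3, 0 passed as higher, against 0.91%, and 1 as lower, against 0.819%. The summed level of the 4 kept astrocyte markers, on a linear scale where 1 is the 75th percentile of the array, was 0.140 to 0.273 in P1 DMEM, 0.265 to 0.293 in P1 ACM, 0.147 to 0.269 in P3 DMEM and 0.0914 to 0.281 in P3 ACM. Of 6 microglia and macrophage markers, AIF1 had no matched probe. All 5 kept were higher in ACM at P1 and 4 at P3. CX3CR1 passed the thresholds at P1 (2.16), against 13.5% of all genes, and CD68 at P3 (1.22), against 0.91%. The ACM arrays lay wholly above for 1 of the 5 at P1, against 30.6%, and for 3 at P3, against 4.74%. The summed level of the 5 kept was 12.3 to 17.8 in P1 DMEM, 16.8 to 24.2 in P1 ACM, 9.95 to 12.1 in P3 DMEM and 14.3 to 21.8 in P3 ACM.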

How the data were processed

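RNA of Daoy cells was labelled with Cy3 and hybridised to 12 Agilent 4 x 44K arrays. The authors deposited scanner output with the background-corrected intensity of each spot (Agilent Feature Extraction 11.0.1.1), not normalized between arrays. They also deposited a table of log2 values, used only as an alternative under its own labels. Here 1377 control spots and outlier spots were left out, repeat spots were averaged, and log2 intensity was centred on the 75th percentile of its array. A probe was kept, as were 31078 of 34127, when 1 group or more had it well above background on all its arrays. Symbols came from RefSeq accessions (25771 probes). All 12 arrays entered 1 fit with 4 group means in limma 3.58.1 (R 4.3.3) with two-sided tests and p-values adjusted over all kept probes (Benjamini-Hochberg), and genes counted through their brightest probe. Calls used the thresholds of the study, more than 2-fold and p of 0.05 or less. The fit was tested on simulated data with known changes, drawn for each probe alone without effects of slide or replicate. That test therefore does not bear on such effects in the calls above. The number of arrays limits the precision.

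The members and lists were chosen with earlier results of these data known. Values on every array were set to be given for STAT2, IRF9, IRF7, IRF1, IFIH1, for the 8 members with the highest mean in DMEM (a rule of probe signal, not of RNA amount), and for members past the thresholds in a comparison of 2 groups, with the other members as ranges and counts. The labels call the experiments independent and do not say what a replicate number marks. P-values measure the spread between these samples. One gene of the pathway lists is not reported here.

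Deviations from the group means were correlated between same-numbered P1 arrays across probes, with r of 0.43, 0.19 and 0.27, and the numbers were therefore treated as pairs. At P3 r was 0.23, -0.19 and 0.06, although the replicate block was fitted over both passages. Settings changed in turn were the normalization (quantile), the background (normexp on the median intensity, offset 50), the source (the table), the filter on dim probes (none or stricter), the arrays fitted, the test (the methods' t-test), a block for replicate or slide (fixed or random), the probes of a gene (mean), and single arrays left out. Figures were drawn with matplotlib 3.10.9.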

Additional observations from a re-analysis of the deposited data

Results flagged for a closer look

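The effect of ACM differed between passages for CMPK2 and for PTPN6 at an unadjusted p under 0.05 in the test of the difference itself. For CMPK2 the log2 difference between ACM and DMEM was -0.60 at P1 and -1.24 at P3, so that the passages differed by -0.63 (SE 0.25, adjusted p = 0.625 in limma). For PTPN6, a gene of the list of negative regulators, it was 1.27 at P1 and -0.36 at P3, so that the passages differed by -1.63 (SE 0.62, adjusted p = 0.625 in limma). Neither passed after adjustment. PTPN6 was well above background on 1 of 3 arrays in P1 DMEM and 1 of 3 in P3 ACM, and on 3 of 3 in the other groups, so both differences rest on a group with mostly dim spots and their size is uncertain. Its levels ran from -4.95 to -4.69 on the 4 arrays of slide 1 and were below that on every other array. The part of slide and of dim signal in this difference was not tested.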

How the results depend on the processing

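Counts are of interferon-stimulated genes past the thresholds. At P1 the count of 1 became 6 with quantile normalization, 2 with normexp, 2 with only probes well above background on all arrays, 2 with only the arrays compared, and 0 with the table of the authors, with slide as a block, with slide as a random block and with the mean of the probes. With the replicate block it was 5. At P3 the count of 8 became 3 with the table, all higher, 3 with the methods' t-test, 1 with slide as a block and 2 with slide as a random block. At P3 same-numbered arrays share only a number, and the replicate block gave 11. From P1 to P3 in DMEM the count of 1 became 0 with the table, 2 with only the arrays compared and 2 with the replicate block. With slide as a block and as a random block the count stayed at 1, but the gene was lower, not higher, and IFITM1 did not pass. In the methods' t-test 1 gene passed as higher, which was not IFITM1. For the difference between passages the count of 0 became 1 with the table, 2 with the replicate block and 1 with slide as a block. The block changed the count in ACM by 0.

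The number of genes lower in ACM, 31 at P1 and 37 at P3, became 18 and 3 with the table and 18 and 20 with slide as a block. Leaving out single arrays gave counts that ran from 0 to 5 at P1, 3 to 18 at P3, 0 to 3 in DMEM, 0 to 0 in ACM and 0 to 3 for the difference, and the genes lower from 25 to 35 at P1 and 35 to 38 at P3. Where an arm kept 2 arrays, limma pooled the spread over all groups.

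With the table, the log2 difference turned for SAMD9L at P1 (0.19) and, at P3, for IFIT3 (0.87), BST2 (0.86), ISG15 (0.68), RSAD2 (1.49), CMPK2 (0.84), SAMD9L (0.96), PARP9 (1.05) and XAF1 (1.83), and IFITM1 from P1 to P3 in DMEM had -0.0237. With slide as a block it turned at P3 for IFIT3 (0.59), BST2 (0.29), ISG15 (0.25) and XAF1 (0.0087). The table differs from the scanner output by the samples its labels name, and slide as a block leaves few arrays to tell media apart; the cause was not tested further.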

Other observations

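Among 15480 genes outside the list, those whose level most resembled the median of the interferon-stimulated genes over the 12 arrays were RTP4, with Pearson's r of 0.95, IGFBP6 with 0.95, ZNF256 with 0.95, NHSL1 with 0.94 and RNF103 with 0.94. RTP4 differed between ACM and DMEM by -0.79 at P1 and -1.23 at P3 on the log2 scale, IGFBP6 by -0.66 and -1.15, and ZNF256 by -0.40 and -0.75. GBP3, a relative of GBP1, had an r of 0.93. These are descriptions over arrays that share groups and slides.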
